A study of Bos taurus with 30 samples.

Results

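Sites open only at the 8-cell stage are stretches of bovine chromatin that ATAC-seq found accessible in 8-cell embryos and at no other stage examined, from oocyte to embryonic stem cells. They number 33269 of 120364 regions of 8-cell embryos (27.6%), and of 250139 regions when those of 7 stages are merged. A region of a stage was a stretch where peaks of at least 2 of its 3 control libraries overlapped. Members were selected on these same peaks: an 8-cell region belonged if it shared no base with a region of GV oocytes, 2-cell or 4-cell embryos, morula, inner cell mass (ICM) or embryonic stem cells (ESC), and if it was not covered by peaks of all 3 libraries of 8-cell embryos whose transcription was blocked. Presence at the 8-cell stage and absence elsewhere are therefore what chose the members, and are given as a description.

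The study followed accessible chromatin through cattle preimplantation development, and its 30 lists of broad peaks, 3 for each of 10 groups, were used here. Oocytes at the germinal vesicle (GV) stage were taken before maturation. Embryos were made in vitro with frozen semen from a Holstein bull and collected as 2-cell embryos 30 to 32 h after insemination, 4-cell embryos on day 2, 8-cell embryos on day 3 and morula on day 5. ICM came from blastocysts of day 7, isolated by immunosurgery, and ESC from bovine lines kept on mouse feeder cells. Transcription blocked embryos (TBE) of the 2-, 4- and 8-cell stages were cultured with α-amanitin at 50 µg/ml, added on day 1; embryos of a collection were split between control and TBE culture. Each embryo or oocyte library is a pool of at least 500 cells, so that a weaker signal in every cell and fewer cells with an accessible site cannot be told apart.

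In cattle the embryo starts large-scale transcription of its own genome around the 8-cell stage, after a period run by maternal RNA and protein. α-Amanitin blocks RNA polymerase II and with it that activation. ATAC-seq tags DNA where a transposase can reach it, mostly promoters, enhancers and other stretches cleared of nucleosomes, and a peak marks more tags than the background of the same library.

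The sites with the strongest signal show what a member looks like at its clearest. Among members with a peak in all 3 8-cell lists and in none of the other 27 lists, of which 7914 lie on chromosomes 1 to 29 and X, the largest mean fold enrichment belonged to chr1:125030964-125031326 (ARS-UCD1.2). Fold enrichment compares the tag pileup with the background around it in that library, as a mean over the peak, and here the largest peak of each list over the region was taken. It was 8.24, 9.03 and 8.72 in the 3 8-cell libraries at that site (8.67 ± 0.398, SD, n = 3). The next sites, chr11:36417092-36417470 (8.54 ± 0.357) and chr12:46095408-46095774 (8.32 ± 0.605, n = 3 each), were as narrow, at 379 and 367 bp. The list went on with chr3:62553052-62553944 (8.23 ± 1.21), chr6:42446372-42447395 (7.84 ± 2.30) and chr4:31791495-31791892 (7.82 ± 0.384). Then came chr5:3260561-3261515 (7.70 ± 1.53), chr22:25038676-25039910 (7.62 ± 2.35), chr6:25249230-25249592 (7.61 ± 0.176) and chr17:52909313-52909672 (7.60 ± 0.435, n = 3 each).

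These 10 sites fell into 2 shapes. Of the 10, 6 were 360 to 398 bp wide and had similar enrichment in the 3 libraries. The 4 wider ones, of 893 to 1235 bp, varied more: the site on chromosome 22 had 6.97, 5.67 and 10.2, and the wider one on chromosome 6 had 8.04, 5.44 and 10.0. That on chromosome 3 had 8.75, 6.84 and 9.08, and that on chromosome 5 had 6.54, 7.12 and 9.43, so that replicate 3 was highest at all 4 and replicate 2 lowest at 3 of them. The nearest morula region lay 9246 bp from the site on chromosome 1 and 75373 bp from that on chromosome 12, the shortest and longest of these distances. Genes at these positions were not analysed here.

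Depth differed between libraries and is given first, since a shallow library may lack peaks for that reason. Its part in the number of peaks was not tested. The background level of a library, the pileup expected by chance, is proportional to its tags. It was 1.31, 0.806 and 0.808 in the 8-cell libraries, 1.24, 3.82 and 0.347 in 8-cell TBE, and 0.452, 0.927 and 0.716 in morula. ICM libraries had 0.493, 0.438 and 1.06, ESC 0.175, 0.656 and 0.404, GV oocytes 0.247, 0.248 and 0.507, and 4-cell embryos 0.494, 0.453 and 0.223. The level could be read in 25 of 30 lists, and not in replicates 1 and 2 of 2-cell embryos, replicate 1 of 2-cell TBE and replicates 2 and 3 of 4-cell TBE. In 2-cell replicate 3 it was 0.718, with 6440 peaks, while morula replicate 1, at 0.452, had 142231. Replicate 2 of 8-cell TBE stood apart with the highest level read, and had 247513 peaks over 194 Mb against 90890 and 50090 peaks in replicates 1 and 3. The shortest list was that of 2-cell TBE replicate 1, with 925 peaks, and among control libraries that of 2-cell replicate 1, with 1002. ESC replicate 1 had the lowest level read, 0.175, and 39333 peaks.

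Within the 8-cell stage, replicates 1, 2 and 3 had a peak at 24990, 26252 and 30917 members, or 75.1%, 78.9% and 92.9% of them. All 3 libraries held 15621 members (47.0%) and exactly 2 held 17648 (53.0%). Of all 8-cell regions, 66.9% had peaks in all 3 libraries. Most members seen in 2 libraries were missing from replicate 1 (8279) or replicate 2 (7017), and 2352 from replicate 3, although replicate 1 had the highest background level. Members were thus more often than other 8-cell regions at the limit of 2 libraries that a region needs.

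Outside the 8-cell stage, single libraries still held peaks over members, since absence was judged by regions of 2 or more libraries. Morula libraries had a peak over 7.17%, 12.5% and 9.53% of members, far below the 62.8%, 71.1% and 69.4% of all 8-cell regions. In 8-cell TBE the values were 5.43%, 19.0% and 1.67%, against 29.7%, 44.7% and 21.5% of all 8-cell regions. ESC libraries had peaks over 0.114%, 4.43% and 1.57% of members and ICM over 0.529%, 1.41% and 2.46%. GV oocytes (0.589%, 0.715% and 1.11%), 4-cell embryos (1.35%, 0.739% and 0.364%) and 2-cell embryos (0.0301%, 0.0301% and 0.268%) came to lower means, and single libraries of these groups, ICM and ESC overlapped. Over all 8-cell regions, ESC libraries had 15.7%, 32.5% and 26.8%, ICM 34.7%, 33.9% and 39.1%, GV oocytes 18.3%, 17.7% and 18.4%, and 4-cell embryos 19.3%, 11.1% and 7.05%. In 2-cell embryos only 0.555%, 0.678% and 3.03% of all 8-cell regions had a peak. No peak of the 18 control libraries of other stages touched 21217 members (63.8%), a peak of 1 such library touched 9700 (29.2%), and 2352 had peaks in 2 or more.

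**Figure D1:**
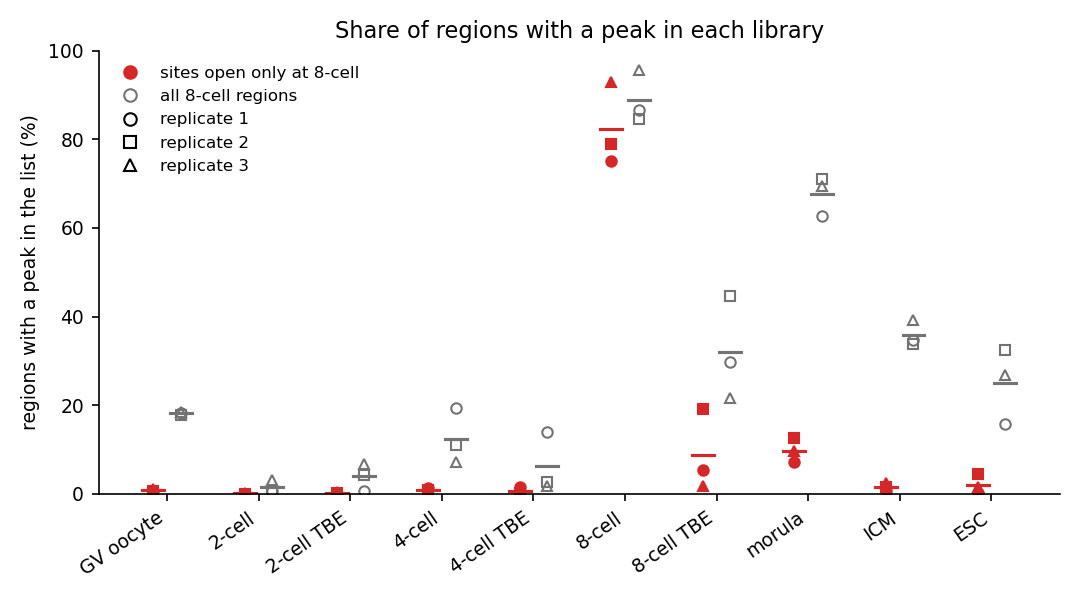
Percentage of regions with a peak in each of 30 libraries (y axis, %), by group (x axis), for sites open only at the 8-cell stage (filled) and all 8-cell regions (open symbols); symbols mark replicates and bars the mean of 3. Members sit at 75.1% to 92.9% in 8-cell libraries and at no more than 19.0%, in 8-cell TBE replicate 2, in any other library. The rule that chose them sets high 8-cell values and low values in other control groups. Of the TBE lists it barred only peaks in all 3 of the 8-cell stage.

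Members were weaker and narrower than other 8-cell regions. Their mean fold enrichment over the 8-cell lists that held them had a median of 3.82, and 5% to 95% of them spanned 2.94 to 5.36. Over all 8-cell regions the median was 4.12, with 3.01 to 6.71. A mean fold enrichment over 5 was reached by 3041 members (9.14%) and by 23.1% of all 8-cell regions. The median width was 463 bp in members and 657 bp in all 8-cell regions, and 25.3% of members against 16.0% of all were 300 bp or less. The narrowest 8-cell region measured 200 bp.

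The same order held across the range. When all 8-cell regions were split into 5 equal groups by fold enrichment, members made up 38.5% of the weakest group, 36.4%, 31.0% and 22.6% of the next, and 9.77% of the strongest. By width, they made up 42.4% of the narrowest group, up to 319 bp, and 14.2% of the widest, from 1228 bp. Regions shared with morula alone made up 26.4% of the narrowest group, then 35.1%, 29.6% and 28.4%, and 23.2% of the widest. A weak region is also more easily missed at another stage, and how much of the count this makes up was not tested.

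**Figure D2:**
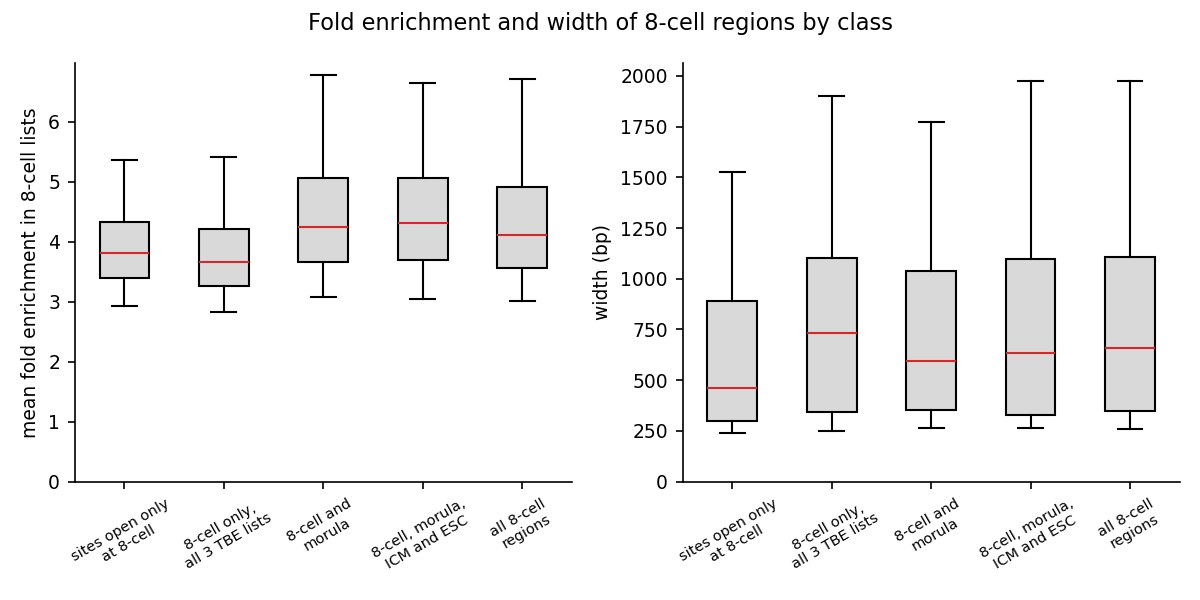
Mean fold enrichment in the 8-cell lists (left) and width in bp (right) for 5 classes of 8-cell regions; boxes span the 25th to 75th percentiles with the median as a line, and whiskers reach the 5th and 95th. Sites open only at the 8-cell stage have a median fold enrichment of 3.82 and a median width of 463 bp, against 4.12 and 657 bp for all 8-cell regions.

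Both ends of the rule can be seen in single sites. The weakest member present in all 3 libraries, chr8:90032924-90034218, had a fold enrichment of 2.13, 2.12 and 1.98 and lay 1446 bp from a morula region. The widest member, chr10:46506083-46510210, measured 4128 bp and had 2.38 and 2.08 in replicates 1 and 3 and no peak in replicate 2. It was also touched by a peak of ESC replicate 2 and lay 1327 bp from a morula region. Without the condition of no peak elsewhere, the strongest member was chr23:36492462-36492883, a site singled out after its values were seen. Its fold enrichment was 9.14, 9.41 and 11.5, and it had a peak in 4-cell replicate 1 and in 8-cell TBE replicates 1 and 2, so it passed because neither group reached the number of libraries the rule asks for.

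Just outside the rule were 783 regions that no other stage shared but that all 3 TBE libraries covered, 2.30% of the 34052 regions found by control libraries alone. Their median fold enrichment of 3.67 and median width of 731 bp lay below and above those of members. On the side of the other stages, 34394 regions were shared with morula alone, 1485 with ESC alone and 677 with ICM alone. A further 456 were shared with GV oocytes alone, 169 with 4-cell embryos alone and 1 with 2-cell embryos alone. All 3 TBE libraries also had a peak over 1288 of those shared with morula alone (3.74%). Of the regions shared with morula alone, 10039 had peaks in exactly 2 morula libraries and 23947 in all 3. Morula therefore decided most of the border of the group.

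Whether these sites recur in embryos that were not used to choose them was asked with libraries left out. Sites were chosen 3 times by the same rule from 2 replicates of every group, requiring both of them where the full rule asks for 2 of 3 libraries, and keeping a site unless both remaining TBE lists covered it. This gave 27617, 30768 and 23298 sites without replicates 1, 2 and 3, of which 85.7%, 73.4% and 73.9% overlapped a member. The percentage of sites with a peak was then read in the libraries left out. Left-out 8-cell libraries had a peak at 67.7%, 69.6% and 88.6% of the sites, below the 83.4%, 81.3% and 94.0% of all 8-cell regions made the same way.

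Morula libraries left out had a peak at 19.0%, 33.2% and 30.6% of these sites, and 8-cell TBE libraries at 4.79%, 23.3% and 2.25%. Over all 8-cell regions made the same way, morula had 67.2%, 75.8% and 76.5% and TBE 30.7%, 47.1% and 25.9%. Every 8-cell library was above every library of these groups at the chosen sites, and also over all 8-cell regions. The difference between 8-cell embryos and morula was 47.7 percentage points, from 75.3% ± 11.5 to 27.6% ± 7.56 (SD, 3 libraries each). The exact two-sided permutation test gave p = 0.1, also after adjustment. That between 8-cell embryos and 8-cell TBE was 65.2 points, with 10.1% ± 11.5 in TBE (SD, 3 libraries), and the same test again gave p = 0.1 by exact permutation, before and after adjustment. With 3 libraries against 3 no p below 0.1 can be had, and adjustment was made over 7 comparisons. An alternative chosen after seeing the data dropped the reading of TBE replicate 2. The TBE mean was then 3.52% and the difference 71.8 points (exact permutation test, p = 0.1). That library still helped choose the sites read in TBE replicates 1 and 3. The TBE mean also depended on the peaks used. It was 3.93% with peaks of a −log10 q of at least 3, 3.95% with a fold enrichment of at least 3 and 4.09% with equal numbers of top peaks. The limit of 3 on fold enrichment lies above the median of the TBE replicate 2 list, 2.49. When regions of another stage had to cover at least 50% of an 8-cell region to exclude it, the TBE mean was 12.2%. Overlap with TBE peaks stayed at 1 bp in that alternative.

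Earlier stages and cultured cells had peaks at few of the left-out sites. The means were 0.995% ± 0.475 in 4-cell embryos, 0.0931% ± 0.105 in 2-cell embryos, 1.39% ± 0.587 in GV oocytes, 3.30% ± 2.04 in ICM and 4.65% ± 4.49 in ESC (SD, n = 3 each). Differences from 8-cell libraries were 74.3, 75.2, 73.9, 72.0 and 70.7 percentage points in that order, with no overlap between groups (exact permutation tests, two-sided, p = 0.1 and adjusted p = 0.1 for each). Over all 8-cell regions the means were 14.3%, 1.77%, 20.9%, 39.9% and 27.7% in the same order against 86.2% in 8-cell libraries, and the groups did not overlap there either. ESC replicate 1, the shallowest ESC library, had 0.355%, and replicate 2 had 9.31%. The lists of 2-cell embryos were so short that their values say little about the sites.

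**Figure D3:**
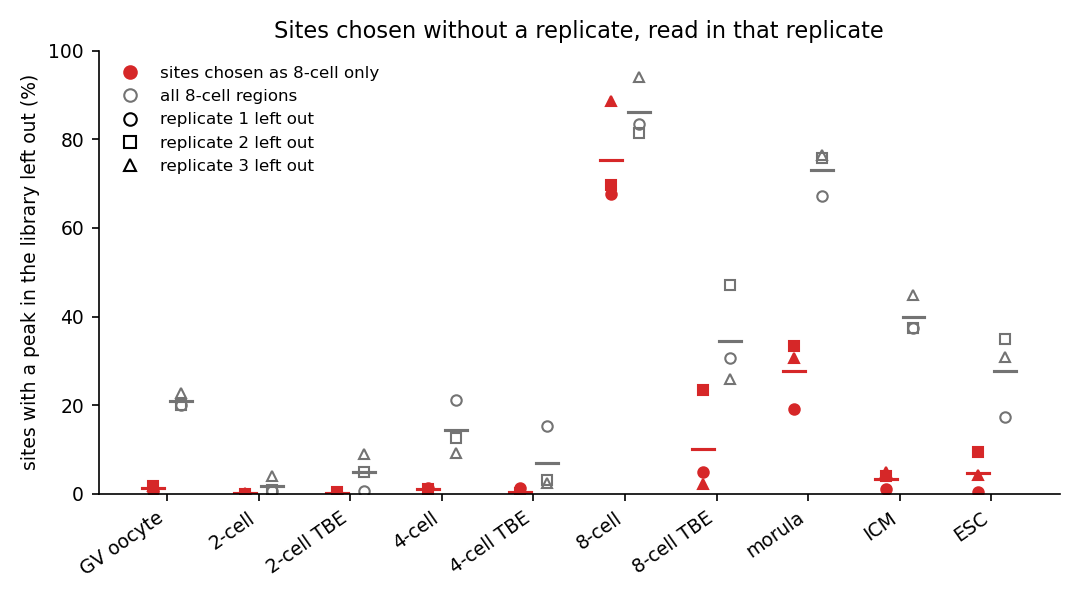
Percentage of sites with a peak in the library left out of their choice (y axis, %), by group (x axis), for sites chosen as open only at the 8-cell stage (filled) and all 8-cell regions (open symbols); symbols mark the replicate left out and bars the mean of 3. Left-out 8-cell libraries lie at 67.7% to 88.6% of the chosen sites, morula at 19.0% to 33.2% and 8-cell TBE at 2.25% to 23.3%.

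A part of the chosen sites thus had a peak at the next stage once an unused library was read, and "open only at 8-cell" describes called regions rather than a complete lack of signal in morula. Relative to the 8-cell library of the same number, morula held 28.1%, 47.8% and 34.6% as many sites, while over all 8-cell regions the ratios were 80.5%, 93.2% and 81.4%. Morula replicate 2, with a background level of 0.927 against 0.806 in 8-cell replicate 2, had the highest ratio, and morula replicate 1, at 0.452 against 1.31, the lowest. The part of depth in these ratios was not tested. A peak in the left-out 8-cell library and none in the left-out morula library was found at 52.2% of the chosen sites without replicate 1, 46.2% without replicate 2 and 60.2% without replicate 3. Across all 8-cell regions these shares were 22.2%, 17.0% and 20.2%.

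The TBE libraries can be set beside the 8-cell library of the same number. TBE replicate 1 had a background level of 1.24 and a peak at 4.79% of the sites, and 8-cell replicate 1 a level of 1.31 and a peak at 67.7%. This pair differed more in peaks called, 90890 against 125253, and in the median fold enrichment of the list, 3.37 against 3.84. TBE replicate 2, with the highest level that could be read, 3.82, had 23.3% against 69.6%. The part of depth in these differences was not tested. A peak in the left-out 8-cell library and none in the left-out TBE library was found at 64.2%, 54.6% and 86.6% of the sites, against a background of 54.6%, 41.7% and 69.0% of all 8-cell regions. In the full data, 12471 members (37.5%) had peaks in all 3 8-cell and no TBE libraries, against 32.3% of all 8-cell regions; the rule used this contrast, so nothing is read from it.

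The left-out TBE libraries were also read at 8-cell regions shared with later stages. Among regions shared with morula alone and chosen from the same 2 replicates, left-out TBE libraries had a peak at 13.6%, 31.9% and 8.80%, and 8-cell libraries at 87.0%, 84.7% and 96.3%. Among regions also present in morula, ICM and ESC, TBE libraries reached 61.4%, 78.1% and 44.0%. The order of the 3 classes was the same in each TBE library, from sites of the 8-cell stage alone to those shared up to ESC. Left-out libraries of earlier stages moved with it: GV oocytes had a peak at 33.3%, 25.4% and 26.9% and 4-cell embryos at 39.8%, 15.3% and 7.47% of the regions shared up to ESC. At the sites of the 8-cell stage alone these were 0.713%, 1.73% and 1.73%, and 1.38%, 1.14% and 0.464%. The part of peaks at earlier stages in the order of the classes was not tested. Only the first class was chosen with a clause on TBE libraries. Without that clause, the mean in left-out TBE libraries at sites of the 8-cell stage alone was 13.3%, with a difference from 8-cell libraries of 61.9 points (exact permutation test, p = 0.1, n = 3 each). The difference between classes in TBE was not tested either.

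Since members are weaker regions, the classes were also set side by side at like fold enrichment, in the full data and as a description. In the strongest of 5 equal groups of 8-cell regions, TBE libraries had a peak at 2.93%, 11.3% and 1.06% of members, at 7.81%, 24.0% and 4.99% of regions shared with morula alone, and at 49.4%, 70.2% and 39.9% of those present up to ESC. In the weakest group the values were 8.75%, 26.8% and 1.94%, then 17.4%, 38.8% and 7.49%, then 51.7%, 72.1% and 30.5%. The order of the classes was the same in both groups and in each TBE library. For members the clause on TBE libraries lowers these values by construction.

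Signal strength went with these values in different ways by group. The chosen sites were split into 3 equal groups by their mean fold enrichment in the 2 8-cell libraries that chose them. From the weakest to the strongest group, the share with a peak in the left-out 8-cell library went from 51.7% to 85.8%, from 55.2% to 85.9% and from 78.7% to 97.7% with replicates 1, 2 and 3 left out. The share in morula went from 12.9% to 27.2%, from 31.4% to 37.1% and from 27.7% to 34.8%. In TBE it went down, from 6.44% to 3.53%, from 30.4% to 17.5% and from 2.82% to 1.79%. The fall was not limited to blocked embryos: in ICM the share went from 1.28% to 0.880%, from 4.39% to 3.51% and from 6.13% to 3.80%, and in 4-cell embryos from 1.76% to 1.11%, from 1.45% to 1.04% and from 0.734% to 0.309%. The middle group did not always lie between the others: with replicate 2 left out it had 31.2% in morula and 0.926% in 4-cell embryos. Width differed too: in the full data, members in the weakest of 5 equal groups had a median of 699 bp and those in the strongest 379 bp. The part of width in these shares was not tested, nor was any of the differences.

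**Figure D4:**
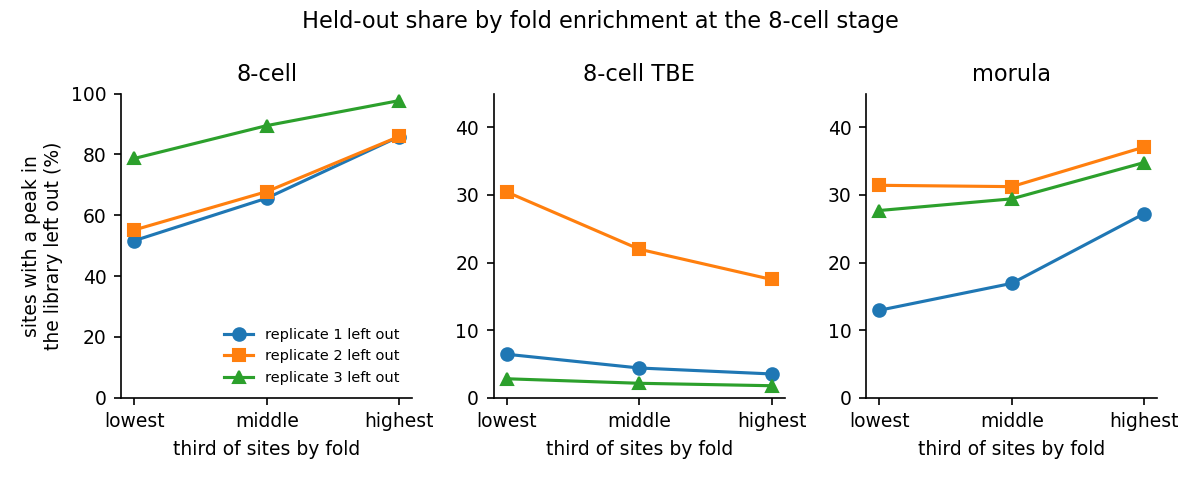
Percentage of sites with a peak in the left-out 8-cell, 8-cell TBE and morula library (y axes, %, with a longer scale for 8-cell), for 3 equal groups of sites by mean fold enrichment in the 8-cell libraries that chose them (x axes); each line is 1 choice of sites. With replicate 1 left out, the share went from 51.7% to 85.8% in the 8-cell library and from 12.9% to 27.2% in morula, while TBE had 6.44% and then 3.53%.

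Among the members themselves, those touched by a TBE peak differed from the rest. No TBE library had a peak over 26256 members (78.9%), 1 had a peak over 5328 (16.0%), and 2 over 1685 (5.06%). Of all 8-cell regions, 52.7% had none, 17.7% had 1 and 10.6% had 2, so the share with exactly 1 was similar. For 4690 of the members with 1 such library it was replicate 2. The median width went from 419 bp with no TBE library to 663 bp with 1 and 758 bp with 2, and the median fold enrichment at the 8-cell stage from 3.87 to 3.65 and 3.54. A peak in some other control library touched 31.4%, 51.1% and 64.2% of these members. Members with TBE peaks were thus wider, weaker and more often touched by a peak of a stage the rule counted as lacking them. The part of width in how often a member was touched was not tested.

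Peaks of TBE libraries over members had a median fold enrichment of 3.32, 2.53 and 3.38 in replicates 1, 2 and 3. The whole lists had medians of 3.37, 2.49 and 3.79, and TBE peaks over all 8-cell regions 3.78, 2.72 and 4.26. The rule took out regions with peaks in all 3 TBE libraries, 19.0% of all 8-cell regions, so nothing is read from these medians. Peaks of morula libraries over members had medians of 3.43, 3.36 and 3.60, below the 4.25, 4.12 and 4.34 of the whole morula lists. Those of 8-cell libraries over members, at 3.75, 3.75 and 3.94, were also slightly below their lists, at 3.84, 3.81 and 4.05. The rule kept only 8-cell regions that no region of 2 or more morula libraries overlapped, which selects for weak morula peaks, so nothing is read from their low median.

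Members with single peaks elsewhere mostly owed them to morula. At least 1 morula library touched 9589 members (28.8%), at least 1 ESC library 2020 (6.07%), 1 ICM library 1456 (4.38%), 1 4-cell library 810 (2.43%), 1 GV oocyte library 792 (2.38%) and 1 2-cell library 109 (0.328%). The median 8-cell fold enrichment was 3.92 in members touched by morula and 3.53 in those touched by GV oocytes. A peak of 8-cell TBE lay over 27.4% of the former and 63.1% of the latter. It also lay over 70.4% of members touched by 4-cell embryos, over 49.0% of those touched by ICM and over 45.1% of those touched by ESC, against 21.1% of all members. Members touched by GV oocytes and 4-cell embryos were wide, with medians of 749 and 780 bp.

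The lists of 2-cell and 4-cell TBE had no part in choosing members. They had a peak over 0.0120%, 0.222% and 0.286% of members at the 2-cell stage and over 1.45%, 0.0571% and 0.0721% at the 4-cell stage. Control libraries of these stages had 0.0301%, 0.0301% and 0.268%, and 1.35%, 0.739% and 0.364%, so that the ranges overlapped at both stages. Members were chosen to lack control regions of these stages, which lowers the control values and not those of TBE, so the differences were not tested. Of all 8-cell regions, 4-cell TBE libraries covered 14.0%, 2.72% and 1.76%. In 4-cell TBE replicate 1, the only TBE library of both stages with peaks over more than 1% of members, 32260 peaks were called against 4166 and 3094 in the other libraries of that group.

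Distances along the genome were measured between the edges of regions. Of 33130 members on chromosomes 1 to 29 and X, the median distance to the next 8-cell region of any kind was 5499 bp, close to the 5987 bp of all 8-cell regions. The nearest other member lay at a median of 17606 bp and the nearest 8-cell region that was no member at 8642 bp. Members are the fewer of both kinds, so these distances do not show whether members gather together. A morula region lay within 1 kb of 5.86% and within 10 kb of 68.2% of members. Within 10 kb the share was 90.2% for all 8-cell regions, most of which overlap one, and 70.3% for the 8-cell-only regions that all 3 TBE libraries covered.

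Distance to regions of earlier stages set members slightly apart. The nearest region of GV oocytes or 4-cell embryos was at a median of 32389 bp. For the 63688 other 8-cell regions that no earlier stage shared, it was at 25374 bp, for those shared with morula alone at 28124 bp, and for those present up to ESC at 22132 bp. The 764 placed regions that all 3 TBE libraries covered were nearest, at 18070 bp. These are descriptions over regions, which are not replicates, and no test was made.

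The share of 8-cell regions that were members differed between chromosomes. It was highest on chromosome 6 (34.9%, 1939 of 5554), chromosome 20 (33.0%) and chromosome 1 (32.2%), and lowest on chromosome 18 (19.4%, 708 of 3644), chromosome 22 and chromosome 29 (22.0%). Chromosome X had 28.8% (1027 of 3566), near the 27.7% of chromosomes 1 to 29 together. Chromosomes with a low share often had dense regions of earlier stages: chromosomes 18 and 19 had 25.3 and 26.1 regions of GV oocytes or 4-cell embryos per Mb and chromosome 6 had 9.08. Chromosomes 22, 28 and 7 had low shares (21.9%, 23.5% and 23.7%) without such density, at 13.2, 12.7 and 13.8 per Mb. Over 29 autosomes Spearman's rho was -0.715 with this density and 0.655 with length up to the last peak, both given as descriptions, since all points share the same libraries. Regions shared with an earlier stage cannot be members, which lowers the share by construction. Counted only among 8-cell regions that no earlier stage shared, members made up 39.8% on chromosome 6 and 29.1% on chromosome 18, and rho was -0.577. This share was lowest on chromosome 22, at 28.2%. Chromosome 19, with the highest density, had 32.1%, against 34.2% on chromosomes 1 to 29 together.

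**Figure D5:**
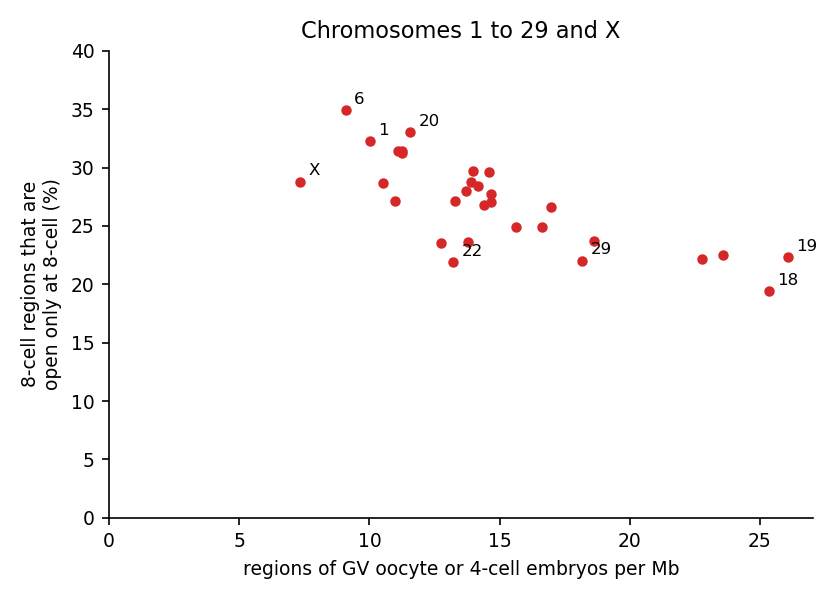
Percentage of 8-cell regions that are open only at the 8-cell stage (y axis) against the density of regions of GV oocytes or 4-cell embryos per Mb up to the last peak of the chromosome (x axis), with 1 point for each of chromosomes 1 to 29 and X. Chromosome 6 has 34.9% at 9.08 regions per Mb and chromosome 18 has 19.4% at 25.3.

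Toward the ends of the autosomes with the highest coordinates, members were fewer. In the last 5 Mb before the last peak of each, 1017 of 6239 8-cell regions were members (16.3%), against 27.5% in the first 5 Mb and 28.4% in between. Among regions that no earlier stage shared, the values were 25.2%, 34.1% and 34.6%. Regions shared with morula alone were also fewer there, at 24.5% of 8-cell regions in the last 5 Mb, 28.5% in the first 5 Mb and 28.8% in between. Members in the last 5 Mb had a median fold enrichment of 3.59 and a median width of 528 bp, weaker and wider than the 3.83 and 464 bp of those in between. On unplaced scaffolds 139 of 845 8-cell regions were members (16.4%), and 11.7% were shared with morula alone. Only 42.0% of the regions there were shared with no earlier stage, and of these 39.2% were members, above the 34.2% of chromosomes 1 to 29.

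Dense groups of members were rare. Of 26286 windows of 100 kb, 16186 held at least 1 member, with a median of 2, 970 held 5 or more and 5 held 10 or more. The densest, chr2:100001-200000, held 12 members among its 16 8-cell regions, of which 1 was shared with morula alone. Of 24509 windows with an 8-cell region, 226 held at least 3 of them and members only. Whether this is more than the share of members among 8-cell regions would give was not tested. The genes of these windows were not analysed here.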

How the data were processed

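Reads were trimmed and mapped by the authors (BWA, ARS-UCD1.2), filtered for duplicates and mapping quality, and passed to MACS2 in broad mode, with 1 peak list for each library. The submitters' processing notes name BWA 0.7.17, SAMtools 1.7 and MACS2 2.1.1. The deposited fold enrichment is a ratio of pileup to local background, with 1 added to each, averaged over a peak by the authors' caller. It therefore lies below the plain ratio, most so at low background levels. The deposited −log10 p and −log10 q values come from the same pileup and background. Members and lists were chosen with earlier results of these data known.

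Peaks were merged on 1 bp of overlap and counted with Python 3.11.15, numpy 2.4.6, pandas 2.3.3 and scipy 1.17.1; figures used matplotlib 3.10.9. The functions were tested on simulated data. The background level was solved from those peaks for which fold enrichment together with −log10 p matched a whole pileup within 0.0001, as the most frequent level shared by at least 50 peaks and no multiple of 0.02, the step of local levels. Groups were compared by exact two-sided permutation tests over libraries, with Benjamini-Hochberg adjustment over 7 comparisons. The labels describe 3 separate collections per stage, with control and TBE embryos of a collection kept in parallel, but do not say that a replicate number marks a collection, so the tests treat libraries as unrelated. Regions named were the 10 strongest members with peaks in all 3 8-cell lists and no other, the widest, the weakest present in all 3 lists, and the window of 100 kb with the most members. Alternatives were stricter peaks, equal numbers of top peaks, chromosomes 1 to 29 and 50% overlap with regions of other stages. Further ones were other numbers of replicates, other conditions of absence, each replicate left out, and a replicate block. For the left-out shares, leaving a replicate out dropped only the choice of sites read in it. Genes, motifs and sequences, which call for a genome and annotation of ARS-UCD1.2, were not analysed here. RNA-seq was not used here.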

Additional observations from a re-analysis of the deposited data

Results flagged for a closer look

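In the lists of 2-cell and 4-cell TBE, which entered no test, 2 libraries had a peak over a larger share of sites open only at the 8-cell stage than any control library of their stage. These were 4-cell TBE replicate 1, at 1.45% against at most 1.35% in 4-cell embryos, and 2-cell TBE replicate 3, at 0.286% against at most 0.268% in 2-cell embryos. The other TBE libraries of each stage were below the highest control library. The first list had 32260 peaks against 42012 in the highest control library, and the second 11083 against 6440. Over all 8-cell regions, 4-cell TBE replicate 1 had a peak at 14.0%, below the 19.3% of that control library, while 2-cell TBE replicate 3 had 6.79%, above the 3.03% of its own. The rule chose members for the lack of control regions of these stages and did not use these TBE lists, which lowers the control shares alone. At sites chosen without the replicate read, the order turned at the 4-cell stage, with 1.22% in 4-cell TBE replicate 1 against 1.38% in 4-cell replicate 1. At the 2-cell stage the values were nearly equal, at 0.210% in 2-cell TBE replicate 3 against 0.215% in 2-cell replicate 3. At such sites 2-cell TBE replicate 2 had 0.338%, against 0.0358% in 2-cell replicate 2. That was also above the 0.215% of 2-cell replicate 3, the highest control value of the stage. Over all 8-cell regions made the same way, 2-cell TBE replicate 2 had 4.96% and 2-cell replicate 2 had 0.752%. Their lists held 8118 and 1262 peaks. The differences were not tested.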

How the results depend on the processing

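The number of sites open only at the 8-cell stage, 33269, moved by over 1.5 times under 4 of 15 alternatives. It was 21568 with peaks of a −log10 q of at least 3, 13001 with the 39333 top peaks of each list from the 8-cell stage on, 60915 with regions from any replicate and 21217 with no peak of any control library of another stage allowed. With 1 replicate left out of every group it ran from 23298 to 30768. Without 8-cell TBE replicate 2 it was 33230 and without ESC replicate 1 it was 33379, both chosen after seeing the data. In all 65 alternatives of the left-out shares 8-cell libraries had the higher mean. The replicate block, counted among these for each comparison, leaves the means unchanged, so its direction was fixed. The difference ran from 54.6 to 74.6 percentage points against 8-cell TBE. The lowest dropped the choice of sites read in replicate 3, although replicate 3 helped make the other choices. Against morula it ran from 39.4 to 58.8, the lowest when regions of other stages had to cover 50% of a site. None could pass a threshold of 0.05, so these tests say nothing about stability. With the replicate number as a block, the differences of 65.2 points against TBE and 47.7 against morula had p = 0.25 in an exact sign-flip permutation test, the smallest 3 pairs allow. Deviations of same-numbered 8-cell and TBE libraries over 8-cell regions had correlations of 0.0215, -0.0338 and 0.0201. In these, regions without a peak counted as a fold enrichment of 1. Of 3 8-cell libraries, 1 correlated best with its own number. With 3 libraries in a group, this cannot tell whether a number marks a collection. Since the labels do not say so, the numbers were not taken as pairs. Left-out libraries of a number were, however, read at the same chosen sites. Detection limits absence: a site counted as lacking at a stage may lie below what its libraries could detect. Control lists were shortest at the 2-cell stage. The only level read there, 0.718 in replicate 3, was not low beside the 0.808 of 8-cell replicate 3. The part of depth in these short lists was not tested.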
